A study of Mus musculus with 5 samples.

Results

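Ccl17 and Ccl22, the 2 chemokine genes whose products bind the receptor CCR4, were followed together with Ccr4 and with Ccr8, a related receptor gene. The 4 genes were taken by symbol from the 32285 genes listed for each library, and each was found once. They were selected on results of these data, among them a higher Ccl17 level in the macrophages and monocytes of JAG2KO tumours, so levels in that population and the sum of Ccl17 over all cells are given as a description. The cells came from tumours that grew after Lewis Lung Carcinoma (LLC) cells, a mouse lung cancer line, had been placed under the skin of the flank. The LLC cells carried either a Scramble control or a guide RNA against Jag2, which encodes a ligand of Notch receptors (JAG2KO). Viable cells with the leukocyte surface protein CD45 were sorted and sequenced with the 10x Genomics single-cell 3' v2 protocol, with 3 Scramble and 2 JAG2KO libraries. Strain, sex and age of the mice, the number of LLC clones and the animals behind each library are not given in the sources used here. The p-values below therefore measure the spread between these libraries, which may be technical.

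CCL17 and CCL22 are secreted proteins that guide cells bearing CCR4 along a gradient. Dendritic cells are the best known source of both, above all after they mature and migrate, and some alternatively activated macrophages make them too. CCR4 is carried by regulatory T cells, by T helper cells of type 2 and by skin-homing T cells, and CCL22 in particular is known for drawing regulatory T cells into tumours. CCR8 binds CCL1 and, in the mouse, CCL8, and marks regulatory T cells of many tumours.

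Each library was counted in unique molecular identifiers (UMIs), 1 per captured transcript end, and levels are given as CPM, the UMIs of a gene relative to all UMIs of a class. Since 1 end of each transcript is counted, no scaling by gene length was made. The deposited barcodes held between 84788907 and 111680641 UMIs per library. The series text states that 10000 cells were encapsulated, and 10262 to 21854 barcodes were deposited per library. After filters on low counts, mitochondrial share and doublets, 53048 cells were kept, 7563 to 9502 in 4 libraries and 17791 in JAG2KO 2. JAG2KO 2 stood apart in depth, with a median of 2445 UMIs per kept cell against 7672.5 to 8617 in the others. Pairs of libraries shared 15 to 48 kept barcodes, at most 0.505% of the smaller one. Ptprc, which encodes CD45, stood between 471 and 578 CPM in all 5 libraries. Jag2 stood at 4.0, 3.04 and 4.52 CPM in Scramble 1 to 3 against 3.62 and 2.32 CPM in JAG2KO 1 and 2, which checks nothing, because the edited cells are the tumour cells and not the sorted host cells.

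Cells were assigned to classes by marker genes, none of which was 1 of the 4 genes. Mature dendritic cells were gated on 4 of 8 genes of migration and maturation with Ccr7 or Fscn1. Type 2 dendritic cells were gated on 4 of 10 markers with Flt3 or Cd209a, and type 1 dendritic cells on 4 of 7 with Xcr1 or Clec9a. Regulatory T cells held Foxp3 and a Cd3 gene. Of the genes that the gates did not use, Tbc1d4 was found in 96.7% of mature dendritic cells and Serpinb6b in 84.5%, H2-Ab1 (an MHC class II chain) in 98.8% of type 2 dendritic cells, and Ikzf2 in 98.8% and Ctla4 in 83.0% of regulatory T cells. Foxp3 was at 0 in type 2 dendritic cells. The dendritic gates first held a few cells of very high UMI number that carried collagen or tumour-cell genes. In the mature dendritic gate 4, 3 and 5 such cells made up 35.9, 37.7 and 50.1% of the UMIs of the Scramble libraries, and 4 and 2 made up 15.8 and 9.54% in JAG2KO. They held between 0 and 2 Ccl22 UMIs in each Scramble library, and 80 and 14 in JAG2KO 1 and 2. Cells with more than 1 of 5 such markers were therefore left out, a step chosen after seeing the data, and values with them are given where they change a result.

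All 4 genes are protein-coding. Their positions in GRCm38 place the ligands on chromosome 8, Ccl22 at chr8:94745590-94751699 and Ccl17 at chr8:94810453-94812036, both on the plus strand. They are 58.8 kb apart with 2 annotated genes between them, Cx3cl1, which encodes another chemokine, and the pseudogene Gnb1-ps3. The receptors lie on chromosome 9, Ccr4 at chr9:114490316-114504916 on the minus strand and Ccr8 at chr9:120092114-120094906 on the plus strand. No annotated gene overlaps any of the 4, so no UMI is shared with a neighbour by position. The stretches before the RefSeq starts of the ligand genes (GRCm38.p6, plus strand) are shown because the ligands differed between the groups in dendritic cells while sitting in 1 cluster. For Ccl17 this is chr8:94810203-94810452, and for Ccl22 chr8:94745434-94745589, and the capitals mark the motif matches.
Ccl17: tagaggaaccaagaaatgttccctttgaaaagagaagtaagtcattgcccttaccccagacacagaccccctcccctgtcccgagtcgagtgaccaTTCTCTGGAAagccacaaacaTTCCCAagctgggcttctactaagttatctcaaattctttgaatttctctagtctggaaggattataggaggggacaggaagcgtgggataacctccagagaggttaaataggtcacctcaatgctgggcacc
Ccl22: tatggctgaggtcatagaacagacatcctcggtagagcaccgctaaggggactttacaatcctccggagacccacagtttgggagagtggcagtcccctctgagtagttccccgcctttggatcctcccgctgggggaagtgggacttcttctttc
In the Ccl17 stretch the first capitals are a match to the STAT6 type motif (TTC and GAA with 4 bases between), 154 to 145 bases before the start, and the second are the motif of RBPJ, the factor of the Notch pathway, TGGGAA on the other strand, 133 to 128 bases before the start. STAT6 carries the signal of interleukin 4 and interleukin 13. Searching both strands of 250 bases before the start, 5.85% of 32851 RefSeq promoters held the first motif and 21.6% the second, and the matches overlap no other motif searched. In Ccl22, of which 156 of the 250 bases searched are printed, neither of these was found, nor was GAAA repeated after 2 bases (interferon regulatory factors, 2.98% of promoters), TGANTCA (AP-1, 6.75%) or the NF-kB motif (7.25%). In Ccr4 there was 1 match, to TGANTCA, 143 to 137 bases before the start, and in Ccr8 none. These are matches of letters, and no binding was measured.

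Ccl22 was a gene of mature dendritic cells. Over the 5 libraries its level in the 361 gated cells ranged from 1721 to 3097 CPM with a median of 2602 CPM, and 84.2% of these cells held a UMI. Type 2 dendritic cells followed, with 112 to 385 CPM and 28.3% of 601 cells, and then the cells with Mgl2 but without Flt3 or Cd209a, with 32.1 to 145 CPM. Type 1 dendritic cells ranged from 12.2 to 229 CPM, so the order of the last 3 classes lies within their spread over libraries. The lowest library of the mature class was above the highest of every other dendritic class. In macrophages Ccl22 ranged from 2.07 to 17.3 CPM and 2.74% of 38381 cells held a UMI. In neutrophils, which had a median depth of 1156 to 2114 UMIs per cell, 1.11% of 1887 cells held one, and in T cells, with 2854 to 3326.5 UMIs per cell, 0.773%. Whether the UMIs in neutrophils and T cells came from these cells themselves was not tested. Plasmacytoid dendritic cells held no UMI of either ligand in 78 cells, which allows a share of cells with a UMI of up to 3.85% and sets no limit on cells that express the genes at a lower level.

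Ccl17 had a wider set of sources. Mature dendritic cells ranged from 617 to 1240 CPM, type 2 dendritic cells from 375 to 1634 CPM and the Mgl2 cells from 498 to 1333 CPM, and these 3 ranges overlap. Type 1 dendritic cells ranged from 62.3 to 551 CPM. In macrophages the level was 1.82 to 36.8 CPM with a UMI in 2.67% of cells, and in neutrophils and T cells 0.795% and 0.773% held one. A further 17 cells, 15 of them from JAG2KO, carried both T cell and dendritic markers. They held 303 Ccl22 and 168 Ccl17 UMIs, all from the JAG2KO libraries, and were counted in neither class.

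**Figure D1:**
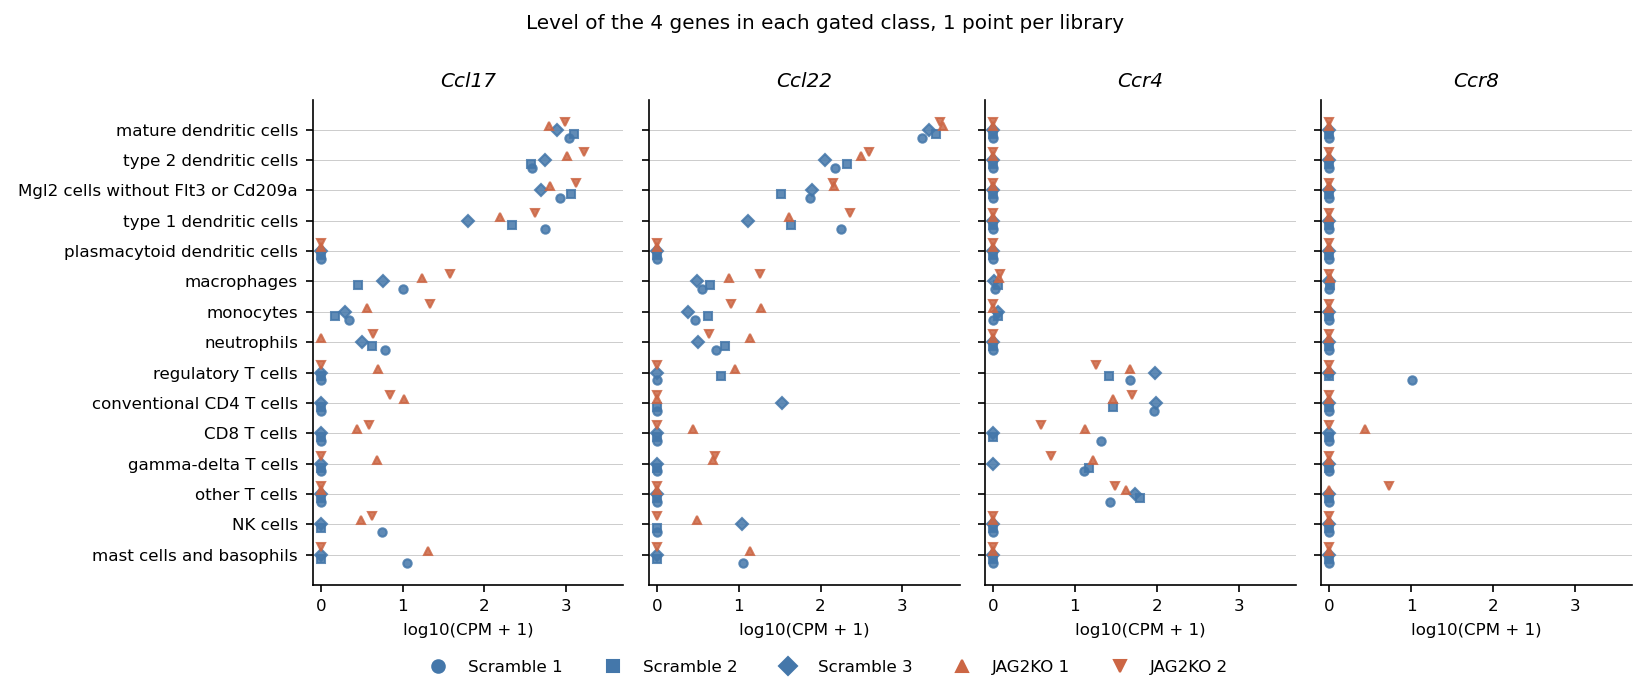
Level of the 4 genes in 15 gated classes, as log10(CPM + 1) on the horizontal axis, with 1 point per library (blue Scramble, orange JAG2KO). Among the classes drawn, which leave out the 17 cells with T cell and dendritic markers, the ligands sit highest in mature dendritic cells, type 2 dendritic cells and Mgl2 cells, where Ccr4 has no UMI, and Ccr4 appears in T cell classes.

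Type 2 dendritic cells held more of both ligand transcripts in JAG2KO tumours. Ccl17 stood at 385, 375 and 544 CPM in Scramble 1 to 3 against 1019 and 1634 CPM in JAG2KO 1 and 2. Both JAG2KO libraries lay above all Scramble libraries, and JAG2KO 2 was the highest. The Scramble mean was 434 ± 94.8 CPM (SD, n = 3) and the JAG2KO mean 1327 ± 435 CPM (SD, n = 2). In edgeR's quasi-likelihood test Ccl17 rose by 1.64 ± 0.19 (SE) on the log2 scale, with an adjusted p of 7.83e-05. Ccl22 stood at 149, 207 and 112 CPM in Scramble against 310 and 385 CPM in JAG2KO, again without overlap. Its log2 fold change was 1.19 ± 0.20 with an adjusted p of 0.00325 in the same edgeR fit. Among 7091 genes tested in this class, 10.1% likewise had both JAG2KO libraries above all Scramble libraries, 57 (0.804%) passed in either direction and 0.324% rose, and both ligand genes were among those that rose. Ccr4 and Ccr8 were not tested there, for they held no UMI in these cells. Without JAG2KO 2 the Ccl22 difference was 1.01 with an adjusted p of 0.144, whereas Ccl17 passed under all 17 alternatives.

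The rise of Ccl17 in type 2 dendritic cells was one of cells with a UMI and of cells with many. A Ccl17 UMI was found in 19.2, 25 and 19.7% of the Scramble cells and 45.8 and 44.9% of the JAG2KO cells. With every cell thinned to 1000 UMIs these shares were 13.5, 12.0 and 11% against 30.2 and 33.3%, and an exact two-sided permutation test gave p = 0.1, the smallest that 3 against 2 libraries allow. Cells with at least 10 Ccl17 UMIs were 8.65, 9.0 and 10.2% of the class in Scramble and 24.0 and 32.1% in JAG2KO. Such cells held 92.8% of the Ccl17 UMIs of the class. Their median depth was 8349 UMIs, against 7196 in the 408 type 2 cells without Ccl17. Flt3 was found in 19.6 against 42.65%, Csf1r in 81.4 against 65.9% and C1qa in 59.8 against 66.4%. Other dendritic genes were found more often, H2-DMb2 in 97.1 against 64.95%, Klrb1b in 72.55 against 54.9%, Ccr7 in 29.4 against 11.8% and Zbtb46 in 41.2 against 25%. Of other macrophage genes, Adgre1 was found in 16.7 against 16.4% and Fcgr1 in 33.3 against 36.3%. Genes of both cell types thus went both ways. Mgl2 stood at 2071 against 664.5 CPM, Cd209a at 801 against 705 and Ifitm1 at 634.5 against 2930. Mrc1 stood at 315 against 195 CPM and Mmp12 at 237.5 against 65.96. Whether the rise lay in a subset of the gate was not tested. The median depth of the class was 6594 to 8336 UMIs in Scramble against 7795.5 and 6386.5 in JAG2KO, so JAG2KO 2 was the lowest here by a smaller margin than over all cells. For Ccl22, a UMI was found in 21.2, 22.0 and 19.7% of Scramble cells and 39.6 and 32.1% of JAG2KO cells. Ccl22 in at least 10 UMIs was rarer, from 3.15 to 4.0% in Scramble against 5.21 and 11.5% in JAG2KO.

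The composition of the type 2 gate was compared between the libraries, too. The 10 type 2 markers, all detected in each library, summed to 5461 to 6522 CPM in Scramble against 5535 and 5584 CPM in JAG2KO. The 8 markers of mature dendritic cells, of which 5 to 7 were detected, summed to 234 to 269 CPM in Scramble against 336 and 284 CPM in JAG2KO, so mature markers were low but higher in both JAG2KO libraries. Markers of other myeloid cells were lower in both JAG2KO libraries. Macrophage markers summed to 1151 to 1821 CPM in Scramble against 1141 and 617 CPM in JAG2KO, monocyte markers to 1473 to 1639 against 1152 and 814 CPM, and neutrophil markers to 787 to 1310 against 587 and 646 CPM. The part of these shifts in the chemokine differences was not tested.

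In mature dendritic cells neither ligand passed the test. Ccl22 stood at 1721, 2602 and 2106 CPM in Scramble 1 to 3 against 3097 and 2897 CPM in JAG2KO 1 and 2. The JAG2KO libraries were the 2 highest, the nearest Scramble library being Scramble 2. The log2 fold change was 0.51 ± 0.19 with an adjusted p of 0.999 in edgeR's quasi-likelihood test (unadjusted p = 0.0163). Among 4245 genes tested in this class, 7.66% likewise had both JAG2KO libraries above all Scramble libraries, and 1 gene (0.0236%) passed the test, with 3 by DESeq2. Ccl17 stood at 1078, 1240 and 779 CPM in Scramble against 617 and 969 CPM in JAG2KO, so the groups overlapped, with a log2 fold change of -0.37 ± 0.23 and an adjusted p of 0.999 in edgeR. With the cells that carry collagen or tumour genes kept in the gate, the Ccl22 levels were 1103, 1627 and 1051 against 2675 and 2647 CPM, the log2 fold change was 1.19 with an edgeR adjusted p of 0.0151, and 227 genes passed.

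The shares of mature dendritic cells with a UMI add to this. A Ccl22 UMI was found in 87.2, 82.1 and 75.6% of the Scramble cells and 84.5 and 87.5% of the JAG2KO cells, which overlap. Thinned to 1000 UMIs per cell, the shares were 59.0, 53.8 and 47.7% against 68.8 and 72.3%, without overlap (exact two-sided permutation p = 0.1). At least 10 Ccl22 UMIs were found in 46.2, 35.9 and 26.7% of Scramble cells and 54.2 and 51.0% of JAG2KO cells. For Ccl17 more cells held a UMI in JAG2KO, 38.0 and 53.1% against 28.2, 28.2 and 24.4%. Thinned, these shares overlapped, with 17.0 and 30.9% against 20.5, 20.5 and 9.09%. At least 10 Ccl17 UMIs were found in 10.3, 23.1 and 6.67% of Scramble cells and 10.6 and 11.5% of JAG2KO cells, which overlap. The mature markers themselves summed to 6285 to 7184 CPM in Scramble against 7747 and 6557 CPM in JAG2KO. Type 2 markers in the gate summed to 1085 to 2069 CPM in Scramble against 1054 and 858 CPM in JAG2KO, lower in both JAG2KO libraries. Macrophage markers (828 to 1506 against 792 and 449 CPM) and monocyte markers (277 to 635 against 218 and 162 CPM) were lower as well. Neutrophil markers went both ways, from 194 to 263 CPM in Scramble against 79 CPM in JAG2KO 1 and 786.5 CPM in JAG2KO 2. The part of these shifts in the chemokine values was not tested.

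**Figure D2:**
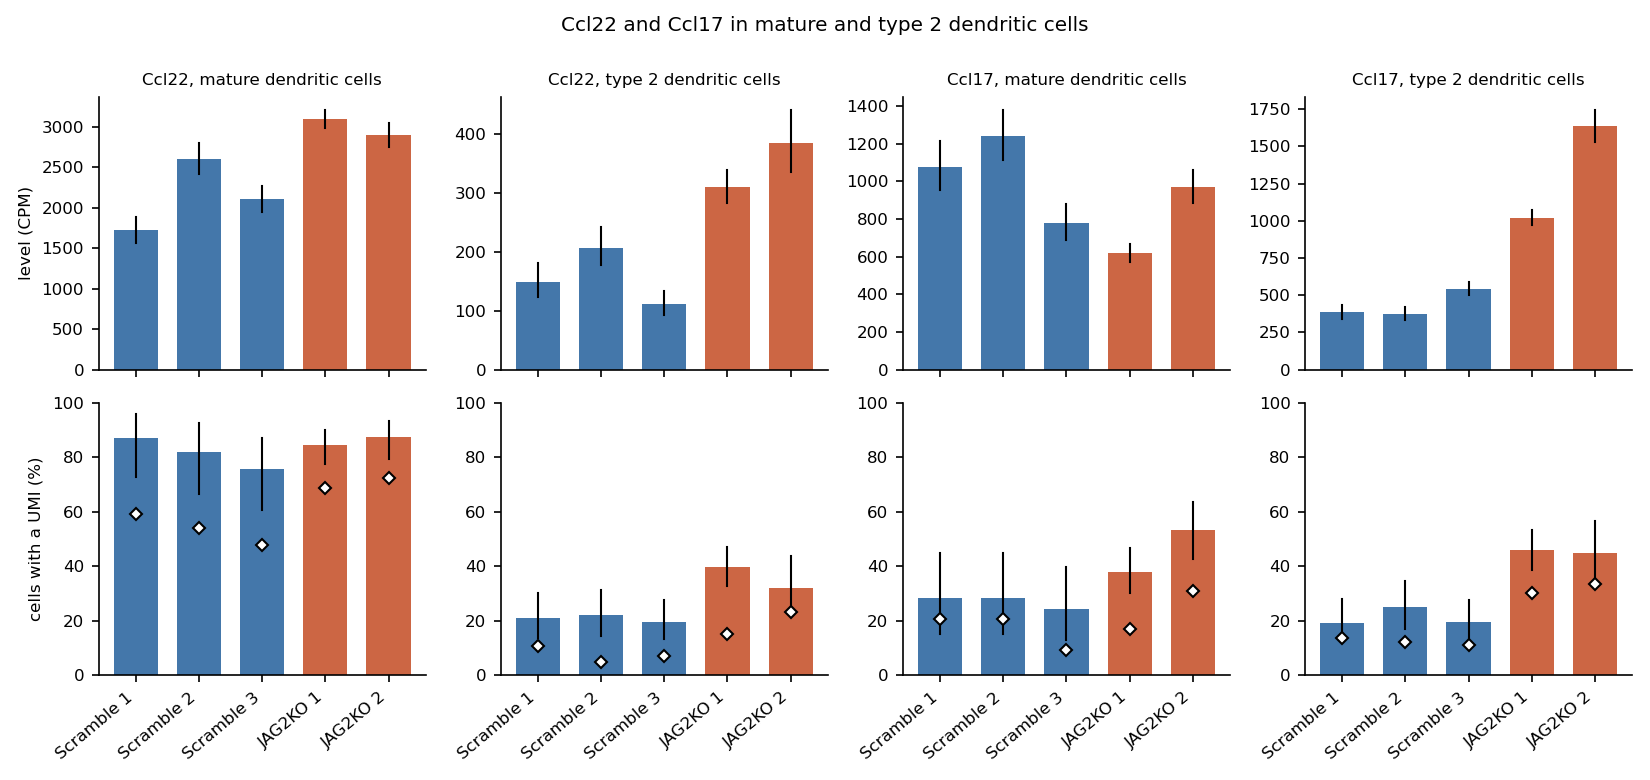
Level in CPM (upper row) and share of cells with a UMI in percent (lower row) of Ccl22 and Ccl17 in mature and type 2 dendritic cells, 1 bar per library with its exact 95% Poisson or binomial interval, which covers counting error only. Diamonds give the share after thinning each cell to 1000 UMIs. In type 2 dendritic cells both JAG2KO bars stand above the 3 Scramble bars for both genes, and in mature dendritic cells the Ccl17 bars overlap.

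The effect on Ccl17 differed between type 2 and mature dendritic cells. In 1 edgeR model over both classes with the library as a block, the log2 effect in type 2 dendritic cells was 1.97 ± 0.25 larger than in mature dendritic cells, with an adjusted p of 0.00105. Of 7292 genes, 3 (0.0411%) passed this test. For Ccl22 the same difference was 0.67 ± 0.20, with an adjusted p of 0.585. The test was added after the 2 effects had been seen. With the collagen or tumour gene cells kept, the Ccl17 difference was 1.20 with an adjusted p of 0.0742.

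In type 1 dendritic cells neither ligand passed the test. Ccl17 stood at 551, 215 and 62.3 CPM in Scramble against 153 and 417 CPM in JAG2KO. Ccl22 stood at 177, 43.0 and 12.2 CPM in Scramble against 39.9 and 229 CPM in JAG2KO. For both genes the groups overlapped and the Scramble libraries spread widely. The log2 fold changes were 0.03 ± 0.43 and 0.80 ± 0.54, with adjusted p of 0.999 and 0.818 in edgeR, where 45 of 6224 genes (0.723%) passed. The Ccl22 difference turned to -0.93 without JAG2KO 2, and was 1.70 with an edgeR adjusted p of 0.000336 without JAG2KO 1. These cells are few, 37 to 51 per library.

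Over all dendritic cells together both ligands rose. Ccl22 stood at 422, 537 and 377 CPM in Scramble against 1093 and 1135 CPM in JAG2KO, with a log2 fold change of 1.37 ± 0.15 and an adjusted p of 0.000243 in edgeR. Ccl17 stood at 541, 449 and 404 CPM in Scramble against 704 and 1031 CPM in JAG2KO, with a log2 fold change of 0.95 ± 0.18 and an adjusted p of 0.00806. Neither gene's groups overlapped, as in 11.1% of the genes tested, and 203 of 9131 genes (2.22%) passed, 1.49% upward. The Ccl17 difference did not pass without JAG2KO 2 (0.61, adjusted p = 0.185) or without Scramble 2 (0.91, adjusted p = 0.0623). The makeup of the dendritic cells moved with these sums. Mature cells were 19.5, 19.3 and 18.8% of them in Scramble and 34.8 and 43.2% in JAG2KO, and type 2 cells were 52.0, 49.5 and 53.1% against 47.1 and 35.1%. The Ccl22 difference in the sum was larger than in the mature and in the type 2 class, and the part of the makeup in it was not tested.

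Of all Ccl22 UMIs in kept cells, 57.4% lay in mature dendritic cells, 18.9% in macrophages and 9.95% in type 2 dendritic cells. The mature share was 51.3, 58.5 and 67.3% in Scramble 1 to 3 against 65.4 and 43.5% in JAG2KO 1 and 2. In JAG2KO 2 macrophages held 35.2% of the Ccl22 UMIs, against 9.55 to 20% elsewhere. Of the Ccl17 UMIs 31.1% lay in macrophages, 25.7% in type 2 dendritic cells, 18.1% in the Mgl2 cells and 13.7% in mature dendritic cells. The macrophage share of Ccl17 was the least even, from 9.10 to 34.4% over the Scramble libraries, 23.6% in JAG2KO 1 and 46.8% in JAG2KO 2. The mature dendritic share of Ccl17 was 16.3, 24.5 and 17.6% in Scramble against 13.3 and 9.09% in JAG2KO, below all Scramble libraries in both (exact permutation p = 0.1). Summed over all kept cells, Ccl22 stood at 11.1, 14.3 and 14.6 CPM in Scramble against 50.7 and 40.7 CPM in JAG2KO. The groups did not overlap, as in 23.4% of all genes tested. This was a log2 fold change of 1.73 ± 0.13 with an adjusted p of 0.00158 in edgeR, where 1001 of 15079 genes (6.64%) passed. The Ccl22 sum includes the macrophages, whose values are given as a description, and the genes were selected on these data. Its p-value is therefore no independent support for a difference. Ccl17 stood at 21.9, 16.3 and 20.6 CPM against 49.7 and 65.0 CPM, given here without a test. Both sums move with the shares of the classes as well as with levels within a class, and they include the macrophages. Mature dendritic cells, for example, were 0.410 to 0.595% of kept cells in Scramble against 1.5 and 0.540% in JAG2KO. The part of the makeup in these sums was not tested.

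**Figure D3:**
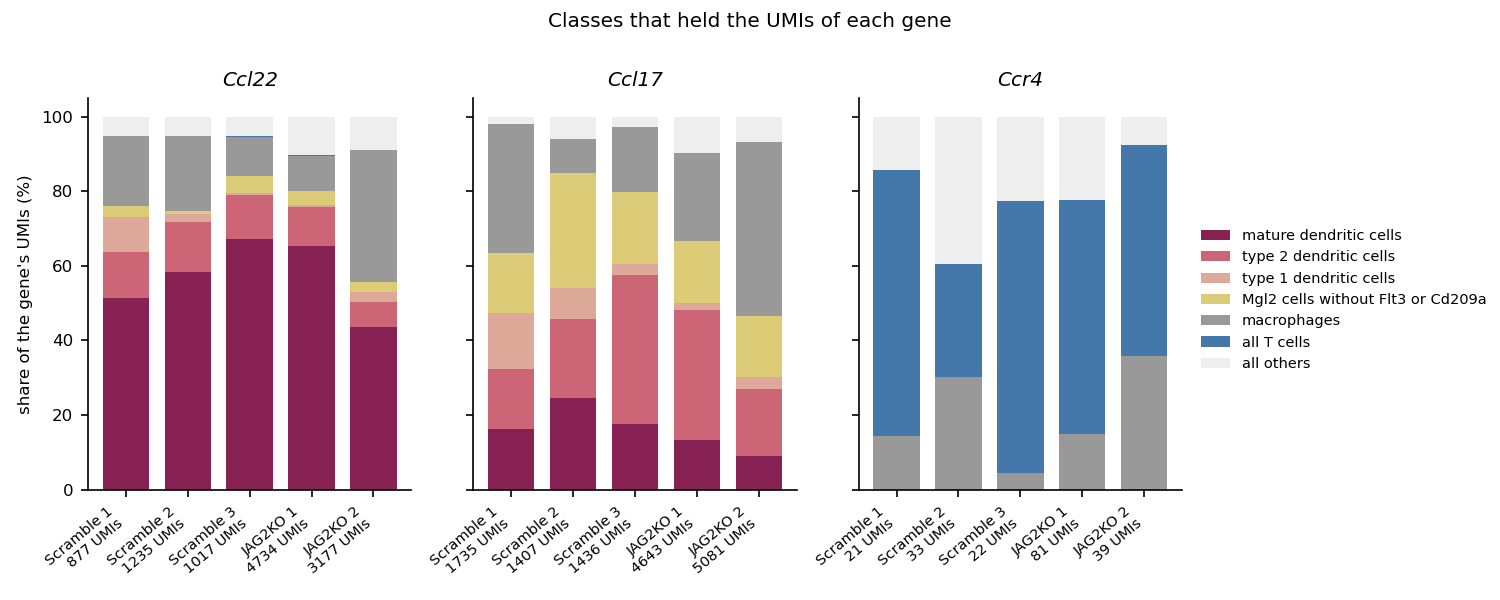
Share of the UMIs of Ccl22, Ccl17 and Ccr4 held by each class in percent, 1 bar per library with its UMI number below. Mature dendritic cells hold 43.5 to 67.3% of Ccl22, the largest share of Ccl17 in a class is 46.8%, in the macrophages of JAG2KO 2, and T cells hold 30.3 to 72.7% of Ccr4, in Scramble 2 no more than macrophages.

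The 2 ligand genes were also counted within single cells. Ccl22 alone was found in 84.2% of all mature and 28.3% of all type 2 dendritic cells, and the part of these base rates in the overlap was not tested. Of 138 mature dendritic cells with a Ccl17 UMI, 135 also held Ccl22, and 3 did not. A further 169 held Ccl22 without Ccl17. Both were found in 28.2, 28.2 and 22.2% of the Scramble cells and 37.3 and 52.1% of the JAG2KO cells. In type 2 dendritic cells, 111 cells held both, 82 Ccl17 without Ccl22 and 59 Ccl22 without Ccl17. Both were found in 10.6, 11 and 11.8% of Scramble and 28.6 and 24.4% of JAG2KO type 2 cells, and neither in 64.0 to 72.4% of Scramble and 43.2 and 47.4% of JAG2KO cells. The share of type 2 cells with neither ligand was thus lower in both JAG2KO libraries, without thinning for depth. Per Ccl17 UMI, mature dendritic cells held 3.24 Ccl22 UMIs and type 2 dendritic cells 0.299. In mature dendritic cells this ratio was 1.60, 2.10 and 2.70 in Scramble against 5.02 and 2.99 in JAG2KO.

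**Figure D4:**
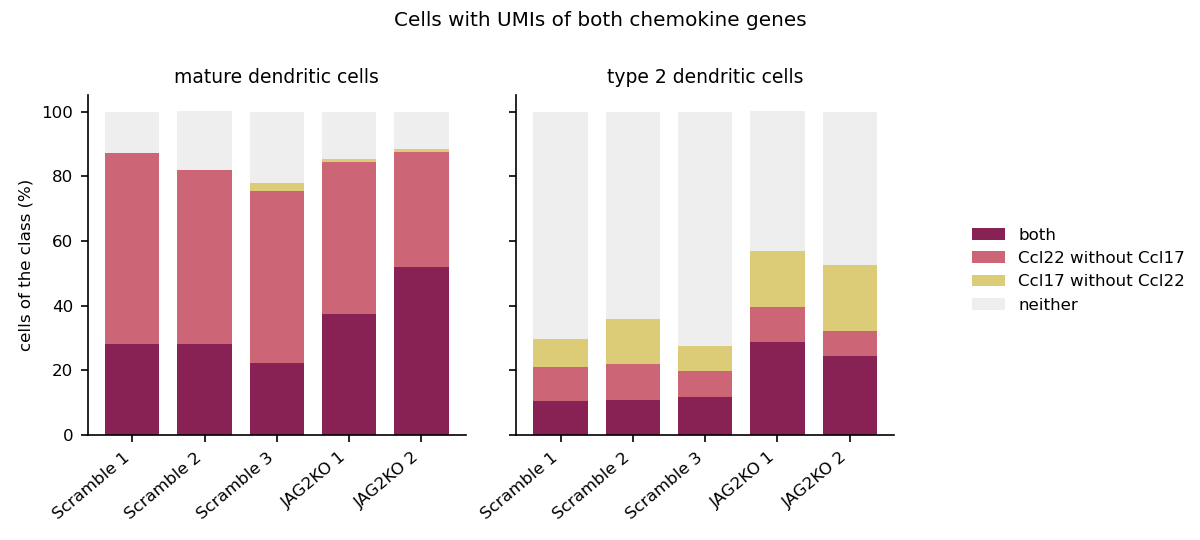
Share of mature and of type 2 dendritic cells with UMIs of both ligand genes, of 1 of them or of neither, in percent, 1 bar per library. Ccl17 without Ccl22 is at most 2.22% of mature dendritic cells, and in type 2 dendritic cells the share with neither is lower in JAG2KO 1 and 2.

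Ccl17 was concentrated in few cells. Of 1737 kept cells with a Ccl17 UMI, 319 held at least 10 and together 81.5% of all Ccl17 UMIs, and the highest single cell held 288. For Ccl22, 255 of 1921 cells held at least 10 and together 72.5% of the UMIs. The Mgl2 cells, which carry 3 or more type 2 markers with Mgl2 (a C-type lectin) but neither Flt3 nor Cd209a, were separated after Ccl17 had been seen in them and are described without a test. Their Ccl17 level was 832, 1155 and 498 CPM in Scramble against 636 and 1333 CPM in JAG2KO, which overlap. Ccl22 stood at 74.0, 32.1 and 78.6 CPM in Scramble, from 25, 12 and 44 UMIs, against 145 and 140 CPM in JAG2KO. These values do not overlap, but the share of all genes that separate in this way was not counted in the Mgl2 cells. H2-Ab1 was found in 95.7% of the Mgl2 cells and Itgax, the integrin CD11c, in 70.2%. Macrophage genes were common in them too. In Mgl2 cells with at least 10 Ccl17 UMIs and in those without Ccl17, Csf1r was found in 94.2 and 84.9%. Mrc1 was found in 78.9 and 67.9%, C1qa in 76.9 and 75.2% and Adgre1 in 19.2 and 38.5%. The class is thus named by its gate and was not assigned to dendritic cells or macrophages.

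In macrophages, Ccl17 stood at 9.21, 1.82 and 4.81 CPM in Scramble 1 to 3 against 16.1 and 36.8 CPM in JAG2KO 1 and 2. A UMI was found in 0.956, 0.924 and 0.987% of Scramble macrophages, close to the share in neutrophils, and in 2.50 and 4.83% of JAG2KO macrophages. Both JAG2KO shares were above the 0 and 0.483% found in the neutrophils of the same libraries and the 1.31 and 0.683% found in their T cells. These classes differ in depth, with which such shares rise, and the 0 came from 135 neutrophils. Ccl22 stood at 2.53, 3.51 and 2.07 CPM in Scramble against 6.63 and 17.3 CPM in JAG2KO. Over macrophages and monocytes together the log2 fold changes were 2.39 for Ccl17 and 2.20 for Ccl22. For Ccl17 it was 1.56 without JAG2KO 2 and 3.09 without Scramble 1, and for Ccl22 1.47 without JAG2KO 2 and 2.69 without JAG2KO 1. Among 14470 genes in this population, 18.6% had both JAG2KO libraries above all Scramble libraries.

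The Ccl17 of macrophages lay in a minority of cells. In all, 84 of 38381 gated macrophages held at least 10 Ccl17 UMIs, 8, 1 and 4 in Scramble against 21 and 50 in JAG2KO, and these held 66.8% of the Ccl17 UMIs of macrophages. Their median depth was 13130 UMIs, against 7544 in macrophages without Ccl17. Mgl2 was found in 96.4% of them against 16.1% of macrophages without Ccl17, Itgax in 92.9 against 14.0% and Irf4, a transcription factor of type 2 dendritic cells and alternatively activated macrophages, in 63.1 against 4.90%. Dcstamp, a gene of cell fusion, was found in 63.1 against 1.45% and Mmp12, a macrophage elastase, in 85.7 against 17.8%. Dendritic genes were found more often too, Flt3 in 4.76 against 0.664%, Cd209a in 17.9 against 0.891% and H2-DMb2 in 63.1 against 4.76%. Klrb1b was found in 61.9 against 2.85%, Ccr7 in 19.05 against 1.65% and Zbtb46 in 10.7 against 0.637%. The macrophage genes C1qa and Csf1r were found in all of the 84 cells, but at lower levels than in macrophages without Ccl17, 2171 against 4262 CPM and 531 against 736 CPM. Mrc1 stood at 598 against 1142 CPM, and Adgre1 was found in 57.1 against 69.7%. Macrophages with 3 or more of the 10 type 2 markers were 4.14% of the class and held 63.0% of its Ccl17, from 50.6 to 92.3% over the libraries. They were 1.98, 3.13 and 3.68% of macrophages in Scramble and 6.29 and 4.75% in JAG2KO, higher in both JAG2KO libraries. In the other macrophages Ccl17 stood at 0.726, 0.889 and 0.565 CPM in Scramble against 5.38 and 20.4 CPM in JAG2KO, also without overlap. Shares with a UMI rise with depth, and the part of depth and of doublets in these shares was not tested.

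Ccr4 was rare and lay mostly, but not in every library, in T cells. It had 196 UMIs in 156 kept cells, 21, 33 and 22 UMIs in Scramble against 81 and 39 in JAG2KO. T cells held 114 of the UMIs (58.2%), and 88 of the 156 cells were T cells, of which 42 held Foxp3. The T cell share of Ccr4 UMIs was 71.4, 30.3 and 72.7% in Scramble 1 to 3, then 63.0% in JAG2KO 1 and 56.4% in JAG2KO 2. In Scramble 2, T cells, macrophages and cells of no class held 10 UMIs each. Over the libraries, Ccr4 ranged from 17.2 to 95 CPM in regulatory T cells, from 28.0 to 98.2 CPM in conventional CD4 T cells and from 25.8 to 62.1 CPM in other T cells. These 3 ranges overlap, so the order of the 3 classes could not be told from these counts. CD8 T cells ranged from 0 to 19.7 CPM and gamma-delta T cells from 0 to 15.4 CPM, in which each library had at most 7 Ccr4 UMIs. The dendritic classes (1271 cells), NK cells (240) and neutrophils (1887) held no Ccr4 UMI, which allows shares of cells with a UMI of up to 0.236, 1.25 and 0.159%. This does not limit the share that expresses Ccr4, since 14.0% of regulatory T cells held a UMI. Macrophages held 40 UMIs in 34 cells, a share of 0.0886%, and cells of no class 35 UMIs.

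The level of Ccr4 within T cells did not pass the test for a difference. In all T cells it stood at 33.8, 25.2 and 52.9 CPM in Scramble 1 to 3 against 28.3 and 13.9 CPM in JAG2KO 1 and 2. JAG2KO 2 was the lowest and JAG2KO 1 lay within the Scramble range. The log2 fold change was -0.71 ± 0.37 with an adjusted p of 0.972 in edgeR (unadjusted p = 0.0735), where 12 of 6222 genes (0.193%) passed. A Ccr4 UMI was found in 11.3, 9.09 and 14.7% of Scramble T cells and 8.10 and 4.56% of JAG2KO T cells, both below all Scramble libraries, with exact permutation p = 0.2. In regulatory T cells the level was 45.7, 25.4 and 95 CPM in Scramble against 46.2 and 17.2 CPM in JAG2KO, from 4 to 23 UMIs per library, and Ccr4 was below the filter on low counts. Thinned to 1000 UMIs, 3.33, 5.0 and 4.35% of Scramble and 4.04 and 4.92% of JAG2KO regulatory T cells held a UMI. The makeup of the T cells differed between the groups, with CD8 T cells, which had little Ccr4, at 9, 9 and 6 cells in Scramble against 171 and 177 in JAG2KO. Its part in the Ccr4 level of all T cells was not tested. Summed over all kept cells, Ccr4 stood at 0.265, 0.383 and 0.316 CPM in Scramble against 0.868 and 0.499 CPM in JAG2KO, a log2 fold change of 1.04 ± 0.31 with an edgeR adjusted p of 0.109.

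Ccr8 was close to undetected. It had 7 UMIs in 7 kept cells, 1 in each Scramble library and 3 and 1 in JAG2KO, and 8 UMIs over all deposited barcodes. A T cell was the source in 3 cases, of which 1 held Foxp3, and 1 cell held both Ccr4 and Ccr8. In 258 regulatory T cells 1 held a Ccr8 UMI (0.388%). No comparison between the groups could be made for Ccr8 at this depth. Of its ligand genes, Ccl1 stood at 1.22, 0.871 and 0.316 CPM of all kept cells in Scramble against 3.57 and 5.35 CPM in JAG2KO (log2 2.42 ± 0.45, edgeR adjusted p = 0.0242). In that fit 6.64% of all genes passed. Within T cells, which were a larger share of kept cells in JAG2KO, Ccl1 stood at 167, 7.57 and 6.62 CPM against 54.9 and 81.7 CPM and did not pass (log2 0.09 ± 0.63). In macrophages and monocytes Ccl1 stood at 0.241, 0.0391 and 0.219 CPM in Scramble against 0.747 and 2.71 CPM in JAG2KO. It did not pass there either (log2 3.39 ± 0.74, edgeR adjusted p = 0.0658). The part of each class in the Ccl1 sum was not tested. Ccl8 stood at 169 to 258 CPM in Scramble against 305 and 316 CPM in JAG2KO (log2 0.42 ± 0.18, adjusted p = 0.239).

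The shares of source and receiver cells were counted as well. T cells were 1.21, 0.926 and 0.992% of kept cells in Scramble against 4.84 and 2.47% in JAG2KO, above all Scramble libraries (exact permutation p = 0.1). For regulatory T cells the shares were 0.366, 0.421 and 0.304% against 1.05 and 0.360%, which overlap. Mature dendritic cells, the main Ccl22 source, were 0.446, 0.410 and 0.595% against 1.5 and 0.540%, which overlap as well. Type 2 dendritic cells were 1.19, 1.05 and 1.68% against 2.03 and 0.438%. JAG2KO 1 was thus the library rich in both dendritic classes, and JAG2KO 2 was not, while both had high ligand levels per type 2 dendritic cell. Cells were sorted and a set number was loaded, so these are shares of the captured cells, not numbers per tumour.

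The lists of related genes gave few calls inside a dendritic class. Among 27 genes of signals and factors known to induce the ligands, 20 were tested in type 2 dendritic cells and 1 rose, where 0.324% of all genes did, with a median log2 fold change of 0.15 against 0.00 over all genes tested there. It was Irf4, at 40.1, 47.8 and 63.6 CPM in Scramble against 92.4 and 116 CPM in JAG2KO (log2 1.01 ± 0.22, edgeR adjusted p = 0.0219). Rel, an NF-kB subunit, stood at 387, 480 and 555 CPM against 686 and 675 CPM without passing (adjusted p = 0.127). Of 21 maturation genes, 14 were tested in type 2 dendritic cells and 1 rose, Serpinb9, a granzyme B inhibitor (log2 1.86 ± 0.38, edgeR adjusted p = 0.0147), with a list median of 0.11. The co-stimulatory gene Cd80 stood at 56.7, 50.3 and 93.9 CPM in Scramble against 97.4 and 109 CPM in JAG2KO (adjusted p = 0.347). In mature dendritic cells 17 of the inducing and 21 of the maturation genes were tested and none passed in edgeR, with medians of 0.02 and 0.09, where 200 of all 4245 genes had an unadjusted p under 0.05 and 1 passed (3 by DESeq2).

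Over all dendritic cells together, in which the share of mature cells was higher in both JAG2KO libraries, 5 of 20 inducing genes and 11 of 21 maturation genes rose and none fell, where 2.22% of all genes passed and 1.49% rose. Their medians were 0.24 and 0.76 against 0.00 over all genes. Among them were Rel (0.81 ± 0.14), Relb (0.98 ± 0.17) and Irf4 (0.97 ± 0.18), and Serpinb6b (1.02 ± 0.14) and Ccl5 (1.28 ± 0.25), a chemokine of T cell recruitment. Relb is itself a marker of the mature gate. In macrophages and monocytes, where 2.34% of all genes passed, 1 of 27 inducing genes rose and 2 fell. Irf4 stood at 2.92, 3.51 and 5.0 CPM in Scramble against 11.1 and 14.9 CPM in JAG2KO (log2 1.76 ± 0.24, edgeR adjusted p = 0.0256). Il4ra, a receptor chain for interleukin 4 and interleukin 13, fell by 0.76 on the log2 scale (adjusted p = 0.0376), and Il33, an alarmin, fell by 1.86 (adjusted p = 0.0398). In this population the 6 T cell markers summed to 4.76 to 9.72 CPM in Scramble against 17.0 and 52.2 CPM in JAG2KO. Type 2 dendritic markers summed to 143 to 169 CPM against 195 and 308 CPM, and mature dendritic markers to 48.7 to 54.9 CPM against 61.7 and 75.3 CPM. The part of these 3 lists, all higher in both JAG2KO libraries, in the differences of this population was not tested.

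On the receiver side, 21 of 23 genes of the effector programme of regulatory T cells were tested in regulatory T cells and none passed in edgeR, with a median of -0.01 against 0.00. In that fit 214 of 3748 genes had an unadjusted p under 0.05 and 5 (0.133%) passed, with 3 by DESeq2. Il10 stood at 36.6, 10.2 and 21.1 CPM in Scramble against 56.2 and 68.7 CPM in JAG2KO (adjusted p = 0.652). Of 13 other homing receptors, 9 were tested in regulatory T cells and 1 rose, Ccr7, the receptor for lymph node homing, at 54.9, 20.3 and 42.2 CPM in Scramble against 219 and 137 CPM in JAG2KO (log2 2.40 ± 0.39, edgeR adjusted p = 0.00209). The Scramble levels came from only 32, 40 and 23 regulatory T cells. Ccr7 is also a marker of the mature dendritic gate, whose 8 markers summed to 152 to 369 CPM in Scramble regulatory T cells against 421 and 283.5 CPM in JAG2KO. In all T cells 1 of 9 rose, Cxcr6, a receptor of tissue-resident T cells, at 153, 144 and 208 CPM against 378 and 398 CPM (log2 1.28 ± 0.21, adjusted p = 0.0104), where 0.193% of all genes passed. The number of CD8 T cells moved with it, as given above, and its part was not tested.

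Across 62 sums of 16 classes and 5 libraries, the gene closest to Ccl22 was Ccl17 (Pearson r = 0.89), followed by Etv3 (0.89), H2-Eb2 (0.87) and Siglecg (0.86). For Ccl17, Rtn1 (0.91) and H2-DMb2 (0.90) came before Ccl22, then Atox1 and Tspan33 (0.88). H2-DMb2 was a marker of the type 2 gate. For Ccr4, with UMIs in 23 of the 62 sums, the closest were Trat1 (0.95), Izumo1r (0.92), Neb (0.91), Cd5 (0.91) and Cd3e (0.90). Of these, Cd3e, Trat1 and Cd5 encode T cell surface proteins that form the T cell receptor complex or tune its signal. The T cell gates required a UMI of a Cd3 gene, so the place of Cd3e follows in part from the gates. For Ccr8, with UMIs in 5 of the 62 sums, no gene passed 0.49. The sums of 1 library share its depth and free RNA, and classes with similar makeup are not independent points.

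The plot of fold changes by setting sets the tested differences beside their alternatives. Ccl17 and Ccl22 in type 2 dendritic cells, both in all dendritic cells and Ccl22 in all kept cells stay above 0 throughout, Ccr4 in all T cells stays below, and type 1 dendritic cells span both sides.

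**Figure D5:**
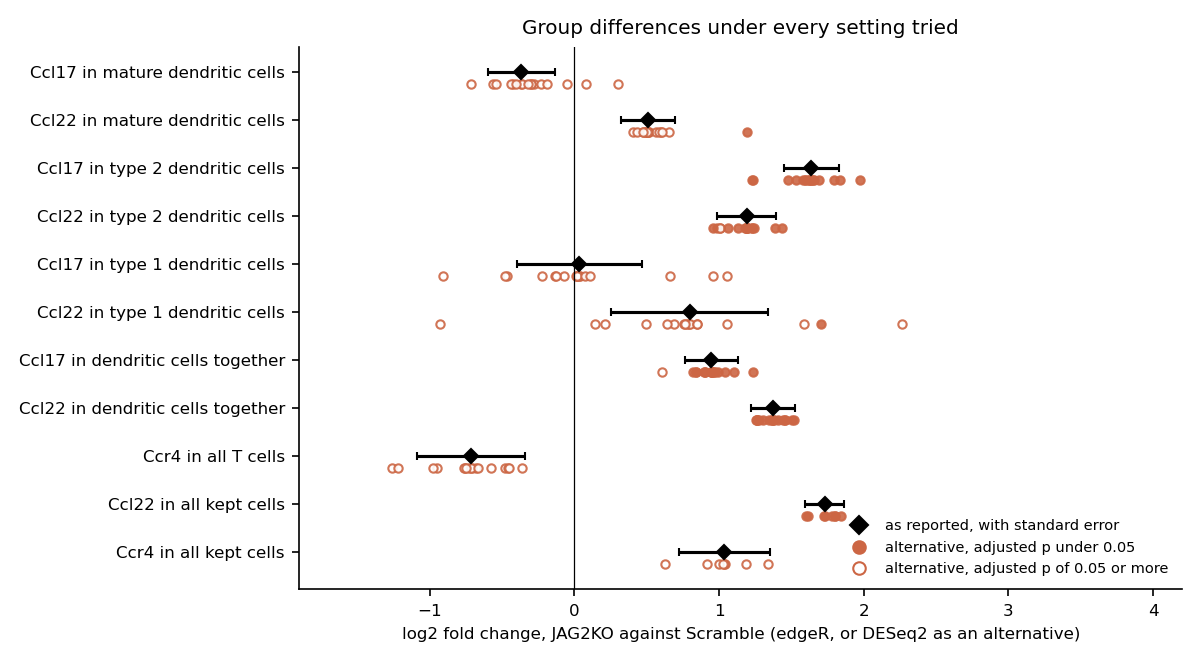
Log2 fold change of JAG2KO against Scramble for each tested result (horizontal axis), with the reported value and its standard error as a diamond and each alternative as a circle, filled where its adjusted p was under 0.05. The filled circle at 1.19 in the row of Ccl22 in mature dendritic cells is the gate that keeps cells with collagen or tumour genes.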

How the data were processed

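The deposited matrices hold counts of UMIs per gene and barcode, made with cellranger 6.0.0 per the file headers, and Seurat, GRCm38 and mm10 are named in the submitters' processing notes. The 4 genes and all lists were chosen with earlier results of these data known. Barcodes under 500 UMIs or 250 genes or above 10% mitochondrial UMIs were dropped, and the highest 8% of doublet scores were removed in each library (scanpy 1.11.5). Classes were gated on marker genes. The number of markers required, the limit of 0.2% of UMIs from complement C1q genes and the limit of 1 of 5 collagen and tumour-cell markers were set after seeing the data. UMIs were summed per library and class and tested with edgeR 4.0.16 (quasi-likelihood test, TMM, filterByExpr, Benjamini-Hochberg adjustment over all genes tested, threshold 0.05), each class on its own and with at least 20 cells per library. DESeq2 1.42.0 was an alternative. The test was also run on simulated counts, with a spread common to all genes and no difference in makeup between libraries. That run therefore does not vouch for single calls in these data. Single values were compared with exact two-sided permutation tests over the libraries, whose smallest p is 0.1. Intervals of 95% and limits for a count of 0 (3 counts) cover counting error only. Beside the 4 genes, up to 4 list members per class, those of smallest adjusted p, and the 5 genes of highest correlation, at a mean of at least 10 CPM, could be named, of which 1 is not reported here.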

Additional observations from a re-analysis of the deposited data

Results flagged for a closer look

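The difference between JAG2KO and Scramble in Ccl17 was not the same in the dendritic classes. It was 1.64 on the log2 scale in type 2 and -0.37 in mature dendritic cells, and the difference of these effects was 1.97 in edgeR with the library as a block. It was lost when cells with any number of collagen and tumour markers were kept (1.20, adjusted p = 0.0742).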

How the results depend on the processing

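For 11 tested differences, 154 of 169 alternatives kept the direction and the side of the threshold. With any number of fibroblast and tumour markers, mature dendritic cells gave 1.19 for Ccl22 (called) and 0.30 for Ccl17 (reversed), and the Ccl22 effect in type 2 minus mature cells was -0.046. The stricter gate gave 0.079 for Ccl17 in mature cells and turned the share of type 2 cells among kept cells from -0.07 to 0.33 percentage points. Leaving out 1 library gave 0.99 to 1.44 for Ccl22 in type 2 cells, 0.61 to 1.23 for Ccl17 in all dendritic cells, and -0.90 to 1.06 for Ccl17 and -0.93 to 2.26 for Ccl22 in type 1 cells. Ccl17 in type 1 cells also reversed at a C1q limit of 0.4% (-0.074), with any number of fibroblast and tumour markers (-0.13) and with none (-0.22). Thinning to 1000 UMIs moved the difference in shares with a UMI from 18.6 to 7.23 points (Ccl17) and from 4.41 to 17.1 (Ccl22) in mature cells, from 24.1 to 19.6 and from 14.9 to 11.5 in type 2 cells, and from -2.03 to 0.25 for Ccr4 in regulatory T cells. The cause of these shifts was not tested. Genes called ranged from 0 to 227 in mature cells (1 as reported), 18 to 143 in type 2 cells (57), 4 to 81 in type 1 cells (45), 89 to 389 in all dendritic cells (203), 7 to 69 in all T cells (12) and 311 to 1650 in all kept cells (1001). The stricter gate left too few cells for a fit in regulatory T cells and for the test of type 2 against mature cells. Ccr8 had too few UMIs for a comparison.

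The replicate numbers are shared by 2 libraries of each group, too few to pair them. Correlations of same-numbered libraries were 0.06 and 0.04 in mature and -0.05 and -0.02 in type 2 dendritic cells, 0.19 and 0.06 in macrophages and monocytes, and 0.17 and 0.03 over all kept cells. With 2 JAG2KO libraries each value is the negative of its partner for the other number. With the replicate block the values were 1.80 for Ccl17 and 1.01 for Ccl22 in type 2 cells, -0.56 and 0.52 in mature cells and -0.46 and 0.14 in type 1 cells, which changed no call but turned the direction of Ccl17 in type 1 cells. Genes called went from 1 to 10, from 57 to 98 and, in all T cells, from 12 to 53.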
